A study of Mus musculus with 35 samples.

Results

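Collagen genes were examined in the mouse hypothalamus, the part of the brain that controls feeding, hormones and the daily clock. A collagen gene was any gene whose symbol has the form Col, number, a, number, with 3 further names left out by the rule, and with a mean raw count of at least 5 over the libraries. Of 49568 genes listed in the count tables, 44 names had this form and 40 genes were kept, while Col10a1 fell below the mean count. All 40 passed the filter on low counts. They were sorted into 11 fibrillar, 7 basement membrane, 5 neuronal and transmembrane, 8 FACIT (collagens that decorate the surface of fibrils) and 9 beaded, network and other collagens.

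The 35 libraries are polyA RNA from the hypothalamus of male B6/J mice killed at ZT16, which is 16 hours after lights on. Control mice fed freely and control mice fasted for 16 hours had 10 libraries each. Mice labelled Per2 ko had 5 libraries, all fasted. Mice labelled PER2-S662D, with the clock protein PER2 carrying an aspartate for a serine, had 5 fed and 5 fasted libraries. Ages and the part of Per2 that is deleted are not given in the sources used here, and the labels do not say that each library is a different mouse, so the p-values measure the spread between these libraries. The totals of assigned counts ran from 17959586 to 37027342 per library. Per2 itself was at 29.0 CPM (counts scaled to the depth of the library) ± 2.45 (SD, n = 10) in fasted controls and at 30.3 ± 2.00 (SD, n = 5) in the libraries labelled Per2 ko. The count of the targeted gene was thus not lower under that label. As the deleted part is not given, a count over the whole gene cannot decide whether the label holds. Per2 was at 18.7 ± 1.98 CPM in fed and 19.9 ± 2.38 CPM in fasted S662D libraries (SD, n = 5 each).

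Collagens are proteins of the extracellular matrix whose chains wind around each other into a rope-like helix before they are secreted. Fibrillar collagens such as types I, II, III, V and XI form load-bearing fibres, which in the brain lie mainly in the meninges and around larger vessels. Type IV collagen forms the sheet-like network of the basement membrane around every brain capillary, and types XV and XVIII sit beside it and carry an endostatin domain. Type XXV is a transmembrane collagen of neurons whose shed part is found in amyloid plaques, and type XIX is made by neurons and takes part in the formation of inhibitory synapses.

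Summed levels of 9 hypothalamic markers ran from 510.5 to 742 CPM over the libraries, and those of 6 pituitary markers from 1.56 to 5.95 CPM, in all 5 groups. Of 5 markers of oligodendrocyte precursors, 3 were called higher in fed and 4 in fasted S662D libraries than in controls, beside 3.12% and 3.35% of all genes tested. The part of these markers in the collagen levels was not tested.

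The libraries stood apart in ways that touch the collagens. In 6 of the 10 S662D libraries (replicates 2, 3 and 4 of both feeding states) the library name in the file header has an additional final digit, whose meaning is not given. The labelled ko and S662D libraries also carry library numbers of their own, so genotype and library set cannot be told apart. Within S662D, edgeR's quasi-likelihood test called 12 of 40 collagens lower and 1 higher in the libraries with the digit, where 4.92% of all genes tested were called lower and 8.57% higher (13.5% in either direction). The digit contrast was added after the data had been seen. Fibrillar collagens made up 5 of the 12. The largest collagen differences were in Col7a1, the chain of anchoring fibrils (log2 fold change -1.19, SE 0.21, adjusted p = 0.000105), Col24a1 (-1.12, SE 0.20, adjusted p = 0.000128) and Col11a1, a chain of type XI fibrils (-1.08, SE 0.12, adjusted p = 9.42e-08). Col11a1 ran from 8.16 to 12.0 CPM in the 6 libraries with the digit and from 14.6 to 25.1 CPM in the other 29, with no overlap; 0.548% of all genes were lower and 1.78% higher in these 6 with no overlap. The collagen called higher was the neuronal Col25a1 (0.29, SE 0.06, adjusted p = 0.00145). Col16a1, Col9a2, Col11a2, Col2a1, Col5a3, Col15a1, Col4a2, Col6a4 and Col6a6 were the other 9 called lower.

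A second set of libraries stood apart by choroid plexus markers (Ttr, Kl, Folr1, Kcnj13, Clic6, Aqp1 and Otx2), genes of the epithelium that makes cerebrospinal fluid. Their summed level was 678 to 1552 CPM in 5 libraries (fasted control replicates 8 and 9, fed control replicate 2, fed S662D replicates 2 and 5) and 23.7 to 299 CPM in the other 30. None of the 7 markers was at 0 in all libraries. Summed markers of leptomeningeal fibroblasts, collagen-making cells of the meninges, ran from 96.8 to 137 CPM in the 5 (median 108). In the other 30 they ran from 50.7 to 148 CPM (median 59.4). The chains of type VIII collagen, a network-forming collagen, were high in the 5 libraries with many choroid plexus marker counts. Col8a2 ran from 9.75 to 13.9 CPM in the 5 and from 3.74 to 8.24 CPM in the other 30. Col8a1 ran from 6.30 to 9.49 CPM against 1.86 to 5.90 CPM. Neither gene overlapped, and 0.221% of all genes were higher in these 5 with no overlap. Col9a3, a chain of the FACIT type IX, ran from 19.4 to 29.2 CPM in the 5 against 7.69 to 19.8 CPM, and 4 of the 5 were above all others. Col18a1, a basement membrane collagen, ran from 15.3 to 19.4 CPM in the 5 against 12.1 to 17.9 CPM, again with 4 of the 5 above all others. Except for Col18a1 these genes were chosen for description after their values were seen. The parts of choroid plexus and leptomeningeal RNA in their levels were not tested.

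**Figure D1:**
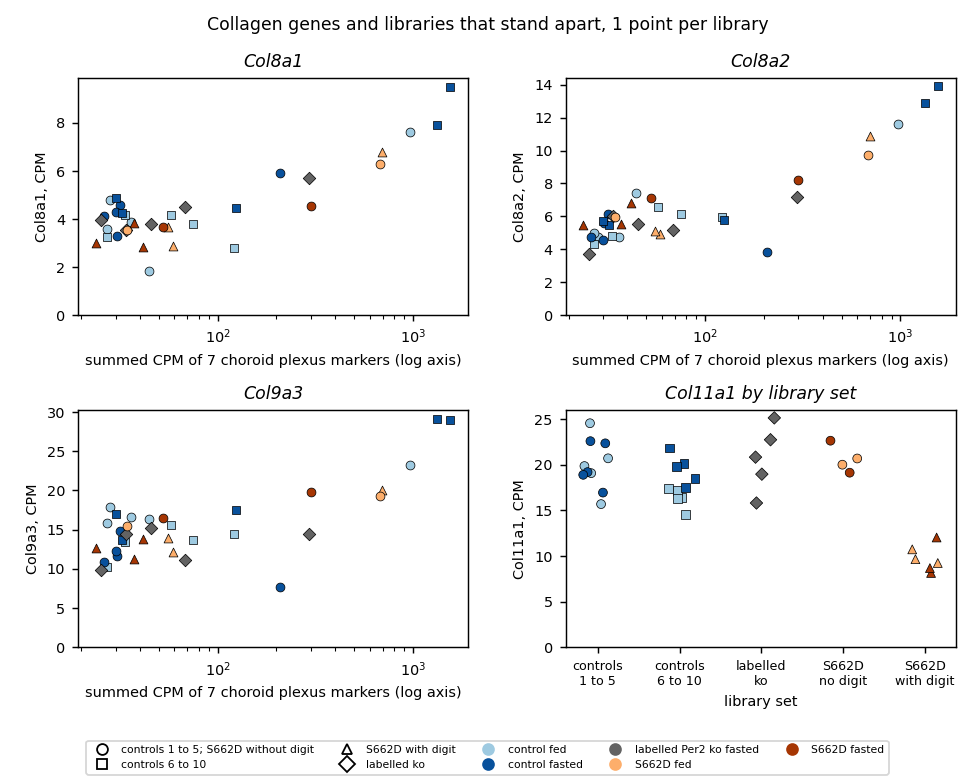
Level of Col8a1, Col8a2 and Col9a3 in CPM against the summed CPM of 7 choroid plexus markers (log axis), and Col11a1 in CPM by library set, with 1 point per library, colour for the group and shape for the library set. The 5 libraries with 678 to 1552 CPM of markers hold the highest Col8a1 and Col8a2 values, and the 6 S662D libraries with the digit hold the lowest Col11a1 values.

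To compare levels between genes, CPM were divided by the length of all annotated exons of the gene in kb, which includes exons of retained-intron transcripts and so lowers genes with many of them. On this scale Col25a1, the neuronal transmembrane collagen, was the highest of the 40 genes, with a mean over 35 libraries of 9.02 CPM per kb. The type IV chains Col4a2 and Col4a1 followed at 7.51 and 4.98 CPM per kb, and then the FACIT genes Col9a2 (4.92), Col16a1 (4.42) and Col9a3 (4.02). The highest fibrillar gene was Col11a2, a type XI chain, at 2.75 CPM per kb. Col1a2 and Col1a1, the chains of the type I collagen of meninges and vessel walls, were at 1.03 and 0.611 CPM per kb, and Col3a1 was at 0.132 CPM per kb. The lowest was Col6a6 at 0.0837 CPM per kb. In fed controls, 38 of the 39 pairs of neighbours in this order overlapped in their ranges over libraries; the exception was Col4a2 over Col4a1.

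By class, the basement membrane collagens held 29.3% of the summed collagen level per length, FACIT collagens 25.5%, neuronal and transmembrane collagens 20.4%, fibrillar collagens 15.8% and the beaded and network group 9.08%. Summed basement membrane collagen was 16.8 ± 1.07 CPM per kb in fed and 18.2 ± 1.15 in fasted controls (SD, n = 10 each), 17.4 ± 1.50 in the labelled ko, 17.8 ± 1.06 in fed and 18.1 ± 1.91 in fasted S662D (SD, n = 5 each). Summed fibrillar collagen was 9.58 ± 0.940, 9.93 ± 1.16, 9.68 ± 0.940, 8.84 ± 1.12 and 8.77 ± 1.54 CPM per kb in the same order of groups. The summed neuronal and transmembrane level was 12.2 ± 0.878, 12.0 ± 0.483, 11.9 ± 0.625, 13.2 ± 1.44 and 12.0 ± 0.754 CPM per kb. The ranges of all 5 groups overlapped in each of these classes. The class sums were not tested.

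**Figure D2:**
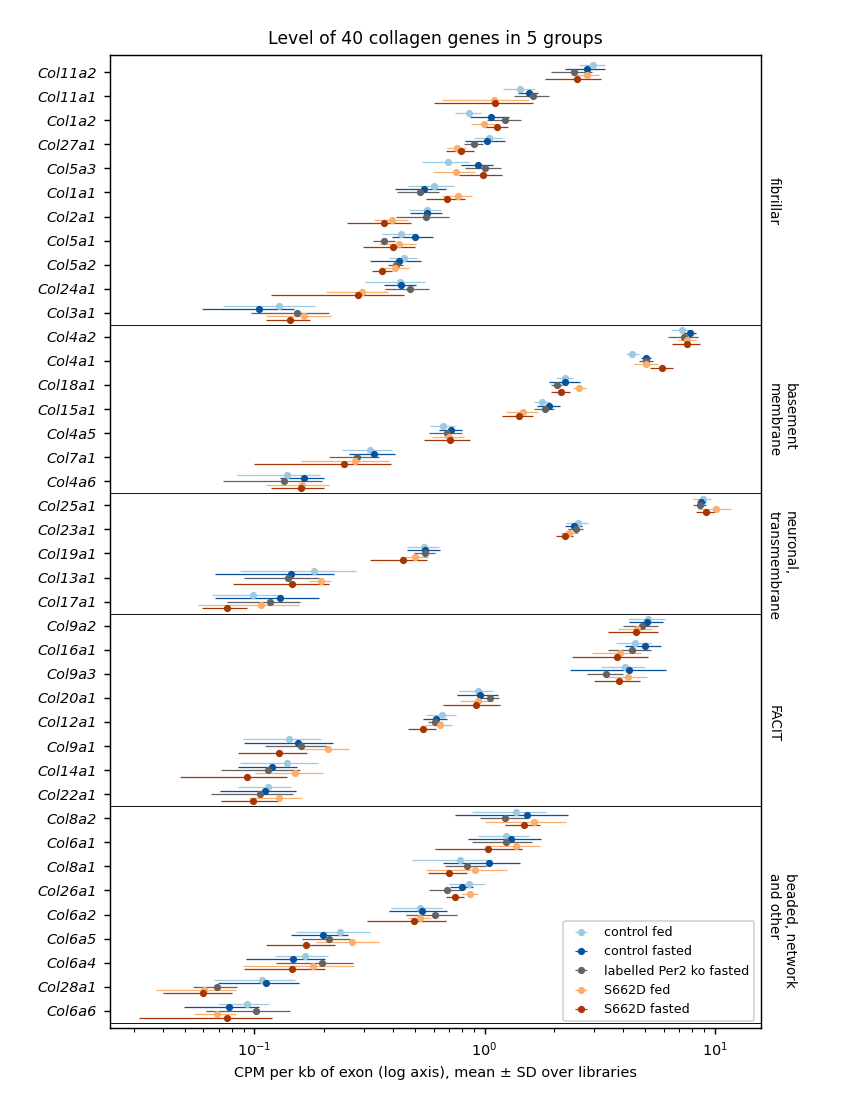
Mean level of the 40 collagen genes in CPM per kb of exon (log axis) in each of the 5 groups, by class, with bars of 1 SD over libraries. Col25a1 and Col4a2 lie at the right at 9.02 and 7.51 CPM per kb over all libraries, and Col6a6 lies lowest at 0.0837 CPM per kb.

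Fasting was first compared in controls, where 20 libraries share the genotype. The test called 3 of 40 collagens higher and 0 lower, where 2.2% of all 18063 genes tested were called higher and 1.68% lower (3.88% in either direction). The 3 were Col4a1, Col1a2 and Col5a3, that is 1 basement membrane and 2 fibrillar genes. With control replicates 1 to 5 only, Col1a2 was called higher and Col26a1 and Col9a3 lower, beside 7.4% of all genes in either direction, and 1 of these 3 was shared with the fit of all controls. With replicates 6 to 10 only, Col5a3 alone was called, beside 1.71% of all genes. None of the 5 neuronal and transmembrane, 8 FACIT or 9 beaded and network genes was called. All 7 basement membrane genes had a positive log2 fold change, with a median of 0.11, beside a median of 0.02 for the 11 fibrillar genes, -0.02 for the 5 neuronal and transmembrane genes and 0.00 for all genes tested.

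Col4a1 encodes the more abundant chain within the type IV helix (chromosome 8, 11198423 to 11312826, minus strand, mm10). It had a lowest, median and highest value of 29.2, 33.7 and 35.4 CPM in fed controls and of 34.4, 37.9 and 40.1 CPM in fasted controls. All 10 fasted libraries were above the fed median and 9 were above the whole fed range. The mean was 1.15 times the fed one (log2 fold change 0.20, SE 0.05, edgeR adjusted p = 0.0120). The call was kept under 27 of 29 alternatives and lost in each of the control sets taken alone, where the log2 fold change was 0.15 in replicates 1 to 5 and 0.24 in replicates 6 to 10. Its partner Col4a2 starts on the opposite strand of the same stretch, and in RefSeq's annotation of GRCm38.p6 the first exons of the pair share 22 bases (chr8:11312805-11312826). Col4a2 ran from 39.6 through a median of 48.2 to 56.3 CPM in fed and from 45.8 through 51.4 to 56.4 CPM in fasted controls, which overlap (log2 fold change 0.10, SE 0.06, adjusted p = 0.548).

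Col1a2 encodes the type I chain that pairs with Col1a1 (chromosome 6, 4504814 to 4541544, plus strand). Its values were 9.18, 10.0 and 12.98 CPM (lowest, median, highest) in fed controls and 9.80, 13.3 and 19.2 CPM in fasted controls. The groups overlapped, and 9 of 10 fasted libraries were above the fed median (log2 fold change 0.33, SE 0.09, adjusted p = 0.0297). Without fasted control replicate 1 or any of 8 other single libraries the call was lost, and it was lost with no filter on low counts and in control replicates 6 to 10 alone (0.17, adjusted p = 0.436). Col1a1 did not pass the test (difference of -0.15 on the log2 scale, SE 0.14, adjusted p = 0.754). The ratio of Col1a1 to Col1a2 per length was 0.712 ± 0.166 in fed and 0.516 ± 0.142 in fasted controls (SD, n = 10 each).

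Col5a3 encodes a minor chain of type V collagen, which sits inside type I fibrils (chromosome 9, 20770050 to 20815067, minus strand). Its lowest, median and highest values were 3.32, 4.59 and 6.31 CPM in fed and 4.87, 6.10 and 7.64 CPM in fasted controls. Every fasted library was above the fed median and 4 were above the fed range, so the groups overlapped (log2 fold change 0.44, SE 0.12, adjusted p = 0.0238). The difference was 0.21 (adjusted p = 0.419) in control replicates 1 to 5 and 0.71 (adjusted p = 0.0160) in replicates 6 to 10. Leaving out any 1 of 7 single libraries ended the call.

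In fasted controls, 3 of 10 endothelial markers (Cldn5, Emcn and Itm2a) were called lower and none higher, beside 1.68% of all genes lower and 2.2% higher. The summed level of the 10 ran from 289 to 330 CPM fed and from 259 to 300 CPM fasted. Of 12 markers of leptomeningeal fibroblasts, the collagen-making cells of the meninges, 0 were called, with a median log2 fold change of 0.16; their sum ran from 50.7 to 137 CPM fed and from 51.2 to 146 CPM fasted. No marker of either list was at 0 in all libraries. The libraries with the highest leptomeningeal sums, labelled ko replicate 5 and fasted control replicate 1, were also the highest in Col1a2, but ranked 11 and 9 in Col1a1. Next by sum were fed control replicates 2 and 6, at 137 and 123 CPM, which ranked 19 and 15 in Col1a2. The part of these cell types in the collagen differences was not tested, and in bulk tissue fewer cells of a type and less RNA per cell cannot be told apart.

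In S662D libraries fasting called 0 of 40 collagens, where 2.64% of all genes tested were called (1.8% higher, 0.83% lower); 6 collagens had an unadjusted p below 0.05, and DESeq2 also called 0. Col4a1 had 32.8, 34.9, 38.5, 44.6 and 37.3 CPM in fed replicates 1 to 5 and 38.3, 40.8, 51.4, 43.0 and 46.7 CPM in fasted ones. Each fasted value was above the fed median, and the groups overlapped. The log2 difference was 0.23, with an SE of 0.07 and an adjusted p of 0.0691. With the digit as a term in the fit, Col4a1 was called. For Col5a3 the difference was 0.40, with an SE of 0.16 and an adjusted p of 0.225. Col18a1, the basement membrane collagen that carries endostatin, had 17.7, 19.3, 16.6, 17.9 and 19.3 CPM fed and 16.2, 14.9996, 15.5, 12.6 and 16.0 CPM fasted. These groups did not overlap, but the share of all genes without overlap was not counted for this comparison. The Col18a1 difference missed the threshold (-0.27, SE 0.09, edgeR adjusted p = 0.124). Of its 5 fed libraries, 2 are among those with many choroid plexus marker counts.

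The test of whether the fasting difference itself differed between S662D and controls called 0 collagens and 0 of all 18063 genes, with 2 collagens and 1151 genes at an unadjusted p below 0.05; DESeq2 called 0 collagens as well. The differences had a negative sign in 35 of 40 collagens, with a median of -0.12 beside 0.00 for all genes. By class the count of negative signs was 9 of 11 fibrillar, 6 of 7 basement membrane and 5 of 5 neuronal and transmembrane genes. None of these single differences passed the test, and the signs come from the same libraries, so they are not separate results. Fed S662D and fasted controls enter this difference with a minus sign. Fed S662D replicates 2 and 5 and fasted control replicates 8 and 9 are among the libraries with many choroid plexus marker counts. Fed control replicate 2, which enters with a plus sign, is another. The part of these libraries in the signs was not tested.

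**Figure D3:**
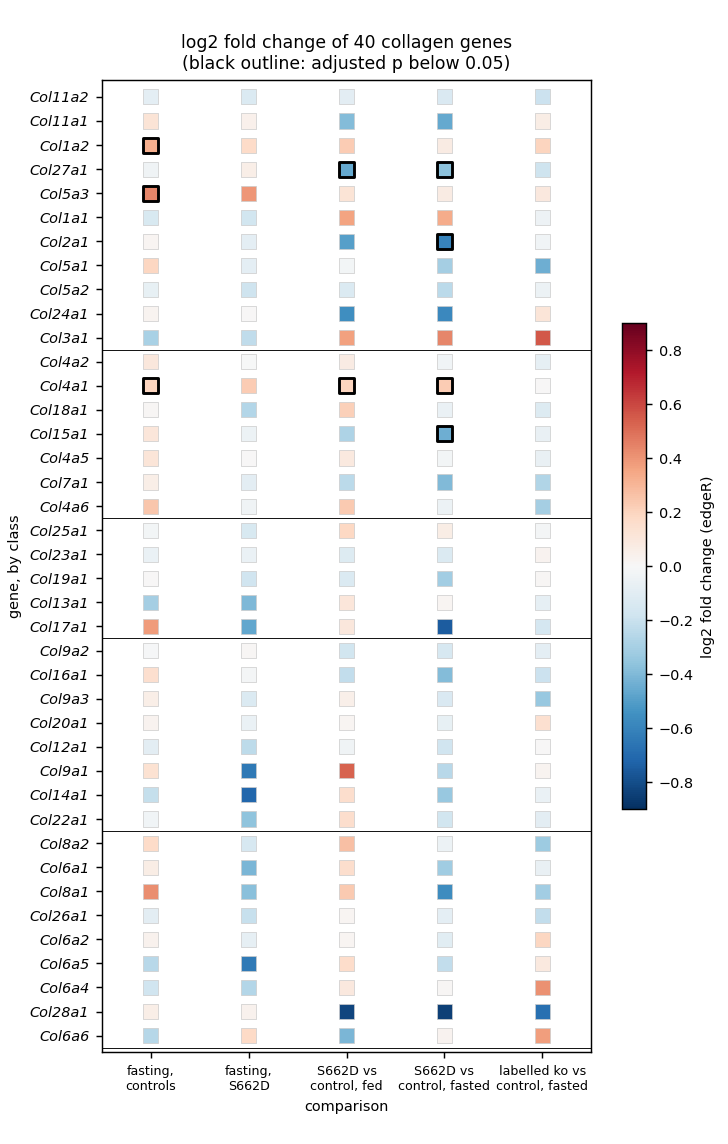
log2 fold change of the 40 collagen genes (colour) in 5 comparisons (columns), by class, with a black outline where the adjusted p is below 0.05. Outlines lie on Col4a1, Col1a2 and Col5a3 for fasting in controls, on Col4a1 and Col27a1 for fed S662D, and on Col4a1, Col15a1, Col2a1 and Col27a1 for fasted S662D.

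S662D was then compared with control within each feeding state. In fed mice 1 of 40 collagens was called higher (Col4a1) and 1 lower (Col27a1), beside 3.12% of all genes tested in the upward and 1.57% in the downward direction (4.69% in either). Among fasted libraries 1 was called higher (Col4a1) and 3 lower (Col15a1, Col2a1 and Col27a1), beside 3.35% and 2.23% of all genes (5.57% in either direction). The fasted median of the log2 fold change was -0.24 over fibrillar, -0.06 over basement membrane and -0.13 over neuronal and transmembrane genes, beside 0.00 over all genes. The fed medians were -0.10, 0.09 and 0.10. Between S662D libraries with and without the digit, Col15a1 and Col2a1 were called, and Col4a1 and Col27a1 were not (edgeR adjusted p = 0.251 and 0.202). With the digit as a term in the fit, 0 collagens were called in either feeding state, where 0.127% of all genes were called fed and 0.111% fasted. With only the S662D libraries that lack it 0 were called as well, beside 0.0854% and 0.112% of all genes. At such shares a count of 0 among 40 says nothing particular about collagens. With only the libraries that carry the digit, 9 were called fed and 13 fasted, where 16.9% and 17.1% of all genes were called.

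Col4a1 in S662D libraries had the values given above. Of 5 fed S662D libraries 3 were above the whole range of fed controls, and of 5 fasted ones 4 were above that of fasted controls. The log2 difference was 0.20 ± 0.06 (SE) between the fed groups, at an adjusted p of 0.0450, and 0.23 ± 0.06 (SE) between the fasted groups, at an adjusted p of 0.0188. In the S662D libraries without the digit it was 0.10 fed and 0.18 fasted (adjusted p = 1.00 and 0.997). Without scaling beyond the library size, the fed and fasted adjusted p were 0.0543 and 0.0511. The fed call was kept under 11 of 27 alternatives and lost in 16, 9 of which left out a single library. The fasted call was kept under 21 of 27 and lost in 6, 2 of which left out a single library. The ratio of Col4a1 to Col4a2 per length was 0.649 ± 0.031 in fasted controls (SD, n = 10) and 0.788 ± 0.116 in fasted S662D libraries (SD, n = 5), with a range of 0.619 to 0.887 in the latter. The high ratios were those of the libraries with the digit, at 0.887, 0.878 and 0.837 in replicates 2, 3 and 4. Replicates 1 and 5, without the digit, were at 0.619 and 0.720.

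In fasted S662D libraries 5 of 10 endothelial markers were called higher (Cdh5, Cldn5, Esam, Flt1 and Pecam1) and none lower, beside 3.35% of all genes higher and 2.23% lower. The sum of the 10 ran from 266 to 341 CPM, against 259 to 300 CPM in fasted controls. It was 298, 319 and 341 CPM in replicates 2, 3 and 4, with the digit, and 298 and 266 CPM in replicates 1 and 5. In fed S662D libraries Cldn5 and Flt1 were called higher and Ly6c1 lower, beside 3.12% of all genes higher and 1.57% lower. The fed sum ran from 291 to 322 CPM, with 309, 322 and 322 CPM in replicates 2, 3 and 4 and 291 and 294 CPM in replicates 1 and 5. Of 8 mural cell markers tested, genes of pericytes and smooth muscle, 0 were called in either state. The sum over all 9 listed mural markers ran from 150 to 194 CPM fed and 136 to 205 CPM fasted in S662D. In controls it ran from 146 to 172 CPM fed and 138 to 155 CPM fasted. No marker of either list was at 0 in all libraries, and their part in the Col4a1 difference was not tested.

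Col15a1 encodes the chain of type XV collagen, which links basement membranes to the matrix below (chromosome 4, 47208161 to 47313167, plus strand). Its values were 10.5, 7.93, 9.59, 7.18 and 9.45 CPM in fasted S662D replicates 1 to 5, against a lowest, median and highest of 10.2, 12.5 and 14.2 CPM in fasted controls. Of the 5 S662D libraries 4 were below the whole control range (log2 fold change -0.44, SE 0.09, adjusted p = 0.00364). In fed S662D the values were 9.31, 9.66, 8.34, 7.70 and 11.6 CPM against 9.90, 11.3 and 12.5 CPM in fed controls (-0.28, SE 0.09, adjusted p = 0.0634). The fasted call was kept under 25 of 27 alternatives. The 2 that ended it were the digit term (-0.28, adjusted p = 0.573) and the libraries without the digit alone (-0.28, adjusted p = 0.997).

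Col27a1 encodes the chain of type XXVII, a fibrillar collagen best known from cartilage (chromosome 4, 63214004 to 63334991, plus strand). In fed S662D replicates 1 to 5 it was at 10.6, 9.69, 8.78, 9.39 and 11.1 CPM, and fed controls had 11.4, 13.4 and 17.6 CPM as lowest, median and highest. The groups did not overlap (log2 fold change -0.46, SE 0.11, edgeR adjusted p = 0.0152). The share of all genes without overlap was not counted for this comparison. Fasted S662D libraries had 10.7, 8.81, 8.92, 10.7 and 12.2 CPM, all below the fasted control median of 13.8 CPM and within the control range of 8.16 to 16.9 CPM (-0.37, SE 0.11, adjusted p = 0.0435). In the libraries without the digit the differences were -0.33 fed and -0.21 fasted (adjusted p = 1.00 and 0.997). Against control replicates 1 to 5 alone the fasted difference was -0.17 (adjusted p = 0.373), and against replicates 6 to 10 alone it was -0.54 (adjusted p = 0.00220). With the replicate number as a block, the fasted difference of Col27a1 had an adjusted p of 0.124 and the fed difference of Col4a1 one of 0.0895.

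Col2a1, the chain of type II collagen, the main fibre of cartilage, was low in all groups. Fasted S662D libraries had 2.68, 1.59, 1.61, 1.98 and 3.14 CPM, against 2.32, 3.39 and 4.29 CPM as lowest, median and highest in fasted controls. The 3 values below the control range were the libraries with the digit (log2 fold change -0.60, SE 0.16, adjusted p = 0.0196). In the libraries without the digit the difference was -0.22 (adjusted p = 0.997), and without the 5 libraries high in choroid plexus markers it was -0.55 (adjusted p = 0.0538). Fed S662D libraries had 3.04, 2.37, 1.99, 2.15 and 2.34 CPM against 2.65, 3.34 and 4.15 CPM in fed controls (-0.50, SE 0.16, adjusted p = 0.0593).

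**Figure D4:**
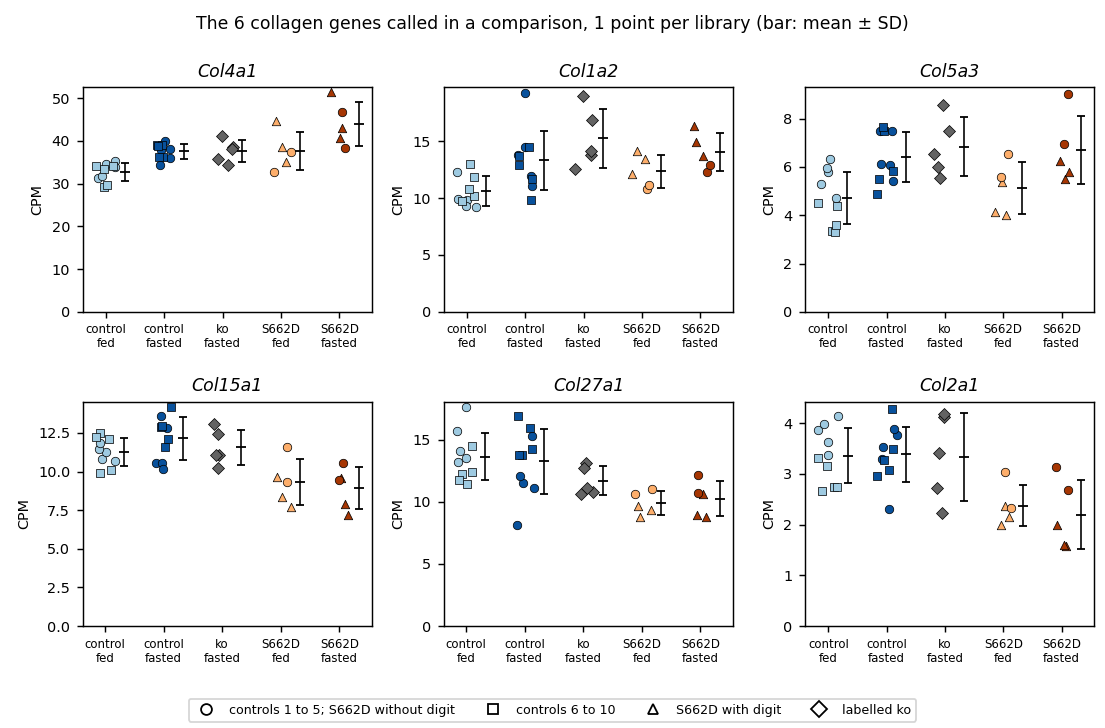
Level in CPM of the 6 collagen genes called in a comparison, with 1 point per library, the shape for the library set, and the mean with 1 SD as a bar beside each group. Fasted controls have higher means than fed ones for Col4a1, Col1a2 and Col5a3, and of the 6 S662D libraries with the digit (triangles) 4 lie below all other libraries in Col15a1 and 5 in Col2a1, with lowest values of 7.18 and 1.59 CPM.

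Among the most abundant neuronal and fibrillar collagens that were not called, Col25a1 differed with the digit in fed libraries. In fed S662D replicates 1 to 5 it had 110.1, 141, 146, 151 and 106 CPM, and the 3 high values are the libraries with the digit. Fed controls had a lowest, median and highest of 101, 115 and 129.8 CPM (log2 fold change 0.19, SE 0.07, adjusted p = 0.0928). Fasted S662D libraries had 110.0, 108, 131, 131 and 112 CPM, against 106, 113 and 123 CPM in fasted controls, which overlap; here replicate 2, with the digit, was the lowest of the 5 and replicates 3 and 4 were the highest (0.06, SE 0.07, adjusted p = 0.642). Col23a1, a transmembrane collagen, differed by -0.13 in either feeding state (SE 0.07 each, adjusted p = 0.334 fed and 0.320 fasted). Col19a1 differed by -0.13 fed and -0.31 fasted (SE 0.14 each, adjusted p = 0.648 and 0.186). Col11a2 differed by -0.10 and -0.14 (SE 0.15 each, adjusted p = 0.770 and 0.651).

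In the fasted libraries labelled Per2 ko 0 of 40 collagens were called against fasted controls, where 0.0277% of all genes were called (0.00554% higher, 0.0221% lower); 2 collagens and 1097 genes had an unadjusted p below 0.05, and DESeq2 also called 0 collagens. Col4a1 had 34.4, 35.8, 41.2, 38.6 and 38.0 CPM, a log2 fold change of 0.00 with a 95% interval from -0.12 to 0.12. Col1a2 had 12.5, 13.8, 14.2, 16.9 and 18.9 CPM (0.20, 95% interval -0.01 to 0.41, adjusted p = 0.842). Col5a1, the main type V chain, was the collagen with the smallest p (-0.44, SE 0.15, adjusted p = 0.703) and was picked for that after its values were seen. Between control replicates 6 to 10 and 1 to 5, 0 collagens and 0 of all genes were called, with 2 and 1579 at an unadjusted p below 0.05.

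Promoter bases, the 250 before the RefSeq start, are shown for 3 of the called genes, Col5a3, Col15a1 and Col27a1. They are from RefSeq's table for GRCm38.p6, in which 32 of the 40 genes were matched with 35 promoters. Each runs 5′ to 3′ on the gene's strand and ends at the base before the start site, and capitals mark matches on either strand to 4 motifs. The motifs were TATAAA, the core promoter box, then CCAAT, the site read by nuclear factor Y, then GGGCGG, the GC box, and last CACGTG, the canonical E-box read by clock factors. Matches that overlap were not merged. The Col27a1 window lies inside the gene as counted here, which starts at base 63214004 of chromosome 4.
Col5a3 (chr9:20815068-20815317, minus strand): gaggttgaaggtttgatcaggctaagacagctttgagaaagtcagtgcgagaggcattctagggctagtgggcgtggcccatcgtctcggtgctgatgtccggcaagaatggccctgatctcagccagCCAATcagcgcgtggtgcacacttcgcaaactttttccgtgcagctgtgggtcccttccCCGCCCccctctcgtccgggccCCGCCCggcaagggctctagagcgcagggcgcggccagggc
Col15a1 (chr4:47207762-47208011, plus strand): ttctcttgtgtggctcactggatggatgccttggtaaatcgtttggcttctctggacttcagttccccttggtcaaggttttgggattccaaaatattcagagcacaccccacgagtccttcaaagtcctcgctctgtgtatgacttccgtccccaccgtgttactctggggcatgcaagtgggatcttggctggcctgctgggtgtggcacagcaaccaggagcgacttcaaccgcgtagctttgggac
Col27a1 (chr4:63215162-63215411, plus strand): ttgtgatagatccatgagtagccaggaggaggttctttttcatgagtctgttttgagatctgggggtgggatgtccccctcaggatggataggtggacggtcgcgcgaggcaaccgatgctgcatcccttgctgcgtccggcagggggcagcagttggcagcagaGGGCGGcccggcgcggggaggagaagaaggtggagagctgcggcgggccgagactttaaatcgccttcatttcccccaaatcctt
The Col5a3 window held 1 CCAAT and 2 GGGCGG matches, the latter on the reverse strand, the Col27a1 window held 1 GGGCGG match, and the Col15a1 window held none of the 4 motifs. GGGCGG was in 22 of the 35 collagen promoters (62.9%) and in 32.8% of all 32841 promoters of this length. CCAAT was in 37.1% of collagen and 33.9% of all promoters, and TATAAA in 11.4% and 12.4%. CACGTG was in 0 of the 35 collagen promoters and in 6.02% of all promoters. These matches describe the letters in the windows only.

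Chains that share a helix, or are made together, were compared across the 35 libraries as deviations of log2 CPM from the group mean, with permutations of libraries within groups and adjustment over 6 pairs. Col6a1 and Col6a2, chains of the beaded type VI collagen, had the highest correlation of the 6 pairs (Pearson r = 0.68, adjusted p = 0.00042 by permutation, Spearman rho = 0.64, adjusted p = 0.00198, and r = 0.67 without the 2 libraries farthest from the median of Col6a1). Col1a1 and Col1a2 had r = 0.47 (permutation adjusted p = 0.0207, rho = 0.51, adjusted p = 0.00992, r = 0.47 without the 2 farthest). Col1a1 and Col3a1 had r = 0.46 (permutation adjusted p = 0.0207, rho = 0.51, adjusted p = 0.00992, r = 0.45 without the 2 farthest). Col4a1 and Col4a2 had r = 0.43 (permutation adjusted p = 0.0404, rho = 0.48, adjusted p = 0.0173, r = 0.58 without the 2 farthest).

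The pair Col4a5 and Col4a6, type IV chains of other basement membranes, had r = -0.05 (permutation adjusted p = 0.803, rho = 0.01, adjusted p = 0.942, r = -0.10 without the 2 farthest). Col9a1 and Col9a3 had r = 0.10 (permutation adjusted p = 0.738, rho = 0.32, adjusted p = 0.0902), which became 0.44 (permutation adjusted p = 0.0184) without the 2 farthest libraries. Col9a1 and Col4a6 are counted in few reads, with as few as 3 and 10 in a library. Within the control sets, Col4a1 and Col4a2 had r = 0.73 in replicates 1 to 5 and 0.76 in replicates 6 to 10 (n = 10 each). Col1a1 and Col1a2 had 0.52 and -0.003, and Col6a1 and Col6a2 had 0.83 and 0.45 in the same sets. The Spearman rho of Col6a1 and Col6a2 had the reverse order, at 0.42 in replicates 1 to 5 and 0.65 in replicates 6 to 10.

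Deviations from a group mean in S662D hold the difference between libraries with and without the digit, so the pairs were recomputed as deviations from the mean of the libraries that share both group and digit. This alternative was added after the data had been seen. Over the 35 libraries Col4a1 and Col4a2 then had r = 0.69 (adjusted p = 6e-05 by permutation, from the smallest p that 100000 permutations can give), Col6a1 and Col6a2 0.63 (permutation adjusted p = 0.0009) and Col1a1 and Col3a1 0.46 (permutation adjusted p = 0.0323). Col1a1 and Col1a2 had 0.39 and no longer passed the test (permutation adjusted p = 0.0836). Within the 10 S662D libraries the value for Col4a1 and Col4a2 was 0.08 from group means and 0.81 from the means that take the digit into account (permutation adjusted p = 0.0413 for the latter). For Col1a1 and Col1a2 it was 0.80 and 0.17 (permutation adjusted p = 0.831), and for Col6a1 and Col6a2 0.91 and 0.84 (permutation adjusted p = 0.0844). These 10 libraries were permuted inside 4 small subgroups. Few arrangements exist there, which limits how small a permutation p within S662D can be.

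**Figure D5:**
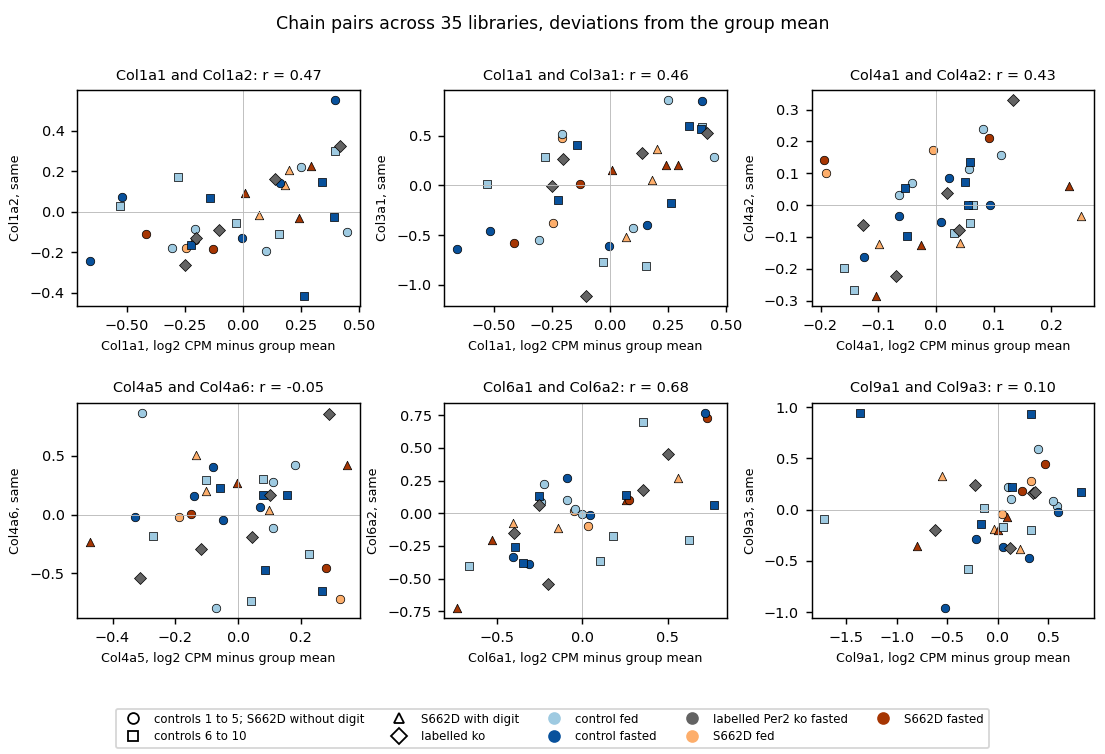
Deviation of log2 CPM from the group mean for the 6 chain pairs, 1 point per library, with the colour for the group and the shape for the library set. The deviations in S662D hold the difference by the digit. Col6a1 and Col6a2 (r = 0.68) lie along a diagonal, and Col4a5 and Col4a6 (r = -0.05) do not.

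The genes that fold, cut, break down and bind collagen were counted from lists of 32 synthesis, 11 breakdown, 8 receptor and 21 matrix partner genes that passed the filter. On fasting in controls 1 synthesis gene was called higher and 3 lower, 1 breakdown gene higher and 2 lower, 0 receptors, and 1 matrix partner higher, beside the 2.2% of all genes called higher and 1.68% lower. Serpinh1, the collagen chaperone of the endoplasmic reticulum, fell from 22.4 ± 2.47 to 17.2 ± 2.48 CPM (SD, n = 10 each; log2 fold change -0.38, SE 0.07, adjusted p = 0.000272). Pcolce2, which speeds the cutting of procollagen, rose from 14.3 ± 2.15 to 19.6 ± 3.12 CPM (0.45, SE 0.09, adjusted p = 0.00120). Mmp14, a membrane-bound protease that cuts fibrillar collagen, fell from 14.4 ± 1.50 to 10.5 ± 1.44 CPM (-0.46, SE 0.07, adjusted p = 1.52e-05). Timp4, an inhibitor of such proteases, rose by 0.29 on the log2 scale (SE 0.06, adjusted p = 0.00124). Ctsk, a collagen-cutting lysosomal protease, fell by 0.53 on the log2 scale (SE 0.15, adjusted p = 0.0289), and the prolyl and lysyl hydroxylase genes P4ha1 and Plod1 fell by 0.21 and 0.19 (adjusted p = 0.0303 and 0.0177). The call of P4ha1 was lost in 12 of 29 alternatives, 9 of which left out a single library, and that of Ctsk in 8 of 29, 5 of them single libraries. Ctgf, a matricellular growth factor, rose from 3.15 ± 0.887 to 6.63 ± 2.08 CPM (1.07, SE 0.21, edgeR adjusted p = 0.000920). However, 23.2% of its exon bases overlap an antisense gene, so its counts are uncertain. The calls of Serpinh1, Pcolce2, Timp4, Ctgf and Plod1 were lost in control replicates 6 to 10 alone, where 1.71% of all genes were called. That of Plod1 was also lost without the 5 libraries high in choroid plexus markers. Mmp14 kept its call under all 29 alternatives.

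In S662D libraries fasting called the same direction for Serpinh1 (-0.51, SE 0.10, adjusted p = 0.000579), Mmp14 (-0.57, SE 0.09, adjusted p = 4.76e-05), Pcolce2 (0.65, SE 0.13, adjusted p = 0.00122), Timp4 (0.44, SE 0.08, adjusted p = 0.000723) and Ctgf (1.38, SE 0.28, adjusted p = 0.00215). Those were all of the called genes of the 4 lists in this comparison. Each call was kept under 19 of 20 alternatives. Each was lost in the S662D libraries without the digit alone, where 0.0373% of all genes were called. None of the 4 lists held a called gene in the labelled ko comparison.

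Between S662D and control, Mmp14 was the pathway gene with the largest difference. It ran from 20.0 to 26.9 CPM in fed S662D against 12.2 to 16.8 CPM in fed controls. When fasted it ran from 15.3 to 17.7 against 8.40 to 12.8 CPM. The groups overlapped in neither state, and the share of all genes without overlap was not counted. The log2 difference was 0.79 ± 0.08 (SE) between the fed groups, at an adjusted p of 2.55e-09, and 0.67 ± 0.08 (SE) between the fasted groups, at an adjusted p of 6.39e-07. Both calls were kept under 27 of 27 alternatives, and in the libraries without the digit the differences were 0.64 and 0.69. Lamb2, a laminin chain of vessel basement membranes, was called higher by 0.27 in each state (SE 0.08 each, adjusted p = 0.0342 fed and 0.0275 fasted), but by 0.03 and 0.01 in the libraries without the digit (adjusted p = 1.00 and 0.997). Hspg2, the basement membrane proteoglycan perlecan, was called higher fed (0.55, SE 0.14, adjusted p = 0.0205), and was at -0.06 in the libraries without the digit. The breakdown list had 3 genes called higher and 0 lower fed (Mmp14, Mmp15 and Timp3) and 2 higher fasted (Mmp14 and Mmp15), beside 3.12% of all genes higher and 1.57% lower fed, and 3.35% and 2.23% fasted. The calls of Mmp15 in both states and of Timp3 were lost with the digit as a term and without the digit libraries. Timp3 shares exon bases with Syn3 and is uncertain. The synthesis list had 1 higher (Creb3l1) and 1 lower (Ppib) fed, and 1 higher (Plod1) and 1 lower (Bmp1) fasted. Of 27 alternatives, 17 ended the call of Creb3l1, 13 that of Bmp1, 11 that of Ppib and 6 that of Plod1, the digit term among them each time. Ppib shares 24.96% of its exon bases with Snx22 and is uncertain. The receptor list had Adgrg1 called higher fed, and the matrix partners had Hspg2 and Lamb2 higher fed, and Lamb2 higher and Agrn lower fasted. The call of Adgrg1 was lost in 10 and that of Agrn in 7 of 27 alternatives. Both were lost with the digit as a term and in the S662D libraries without the digit alone.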

How the data were processed

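Polyadenylated RNA of dissected hypothalamus was sequenced as paired reads, per the labels' protocols. The deposited values are raw counts per gene made by the authors with featureCounts 2.0.1 on a GENCODE vM12 mouse annotation (mm10), per the file headers. The headers name options that count each alignment of multi-mapping reads and no strand option, so reads of antisense partners are not separated, and reads over exons of more than 1 gene are counted for none. STAR 2.7.10b is named in the submitters' processing notes. Counts of 35 libraries were fitted in R 4.3.3 with edgeR 4.0.16 (TMM scaling, filterByExpr by group with a minimum count of 10, robust quasi-likelihood fit of 5 group means, Benjamini-Hochberg over 18063 genes, called below 0.05). DESeq2 1.42.0 was an alternative. The common biological coefficient of variation was 0.0900. CPM use TMM-scaled totals of the genes tested throughout. Chain pairs used log2 CPM with a prior count of 2, computed from the deposited counts, and 100000 permutations. Described genes are the collagens called in at least 1 comparison and the 3 highest per length in the fibrillar, basement membrane and neuronal classes; pathway genes are named where called. The fits were tested on simulated counts of independent libraries, which held no difference by digit, control set or choroid plexus RNA. That test therefore does not cover these differences. Members, lists and comparisons were chosen with earlier results of these data known. Same-numbered replicates were not pairs by the labels. Alternatives covered scaling, filter, tool, library sets, replicate block and leaving out each replicate.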

Additional observations from a re-analysis of the deposited data

Results flagged for a closer look

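Among 65 groups of libraries examined (13 described collagens in 5 groups), 3 held a library set apart from the rest by a gap that is large against the range of its group. A test of this kind marks about 1 in 20 groups by chance. Col18a1 was at 12.4 CPM in fed control replicate 1, the lowest of its group, with the next library at 15.1 CPM. Col19a1 was at 2.32 CPM in fed control replicate 3, with the next at 3.27 CPM. Col1a2 was at 19.2 CPM in fasted control replicate 1, the highest of its group, with the next at 14.5 CPM.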

How the results depend on the processing

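The number of collagens called was recomputed under each alternative. For fasting in controls (3 called) it was 3 in control replicates 1 to 5 only (1 of them shared, 2 lower), 1 in replicates 6 to 10 only, 2 with no filter, and 1 to 3 leaving out single libraries (1 without fed control replicate 9, fasted control replicate 4 or fasted control replicate 10). For fasting in S662D (0 called) it was 1 with the digit as a term, and 0 to 1 leaving out single libraries. For fed S662D against control (2 called) it was 1 without scaling beyond library size, 4 with DESeq2, 5 against control replicates 1 to 5 (beside 9.79% of all genes), 0 against replicates 6 to 10 (0.185%), 9 with the digit libraries only (16.9%), 0 without them (0.0854%), 0 with the digit as a term (0.127%), 1 without the 5 libraries with most choroid plexus marker counts (Col15a1, an alternative chosen after seeing the data), and 0 to 4 leaving out single libraries (0 without fed S662D replicate 2, 3 or 4; 4 without replicate 1 or 5; 1 without fed control replicate 3, 4, 5, 6 or 8). For fasted S662D against control (4 called) it was 2 against control replicates 6 to 10 (0.269%), 13 with the digit libraries only (17.1%), 0 without them (0.112%), 0 with the digit as a term (0.111%), 2 without the 5 choroid plexus libraries, 2 fitting only the groups compared, and 1 to 6 leaving out single libraries (2 without fasted S662D replicate 2, 1 without replicate 3 or 4). The interaction and the labelled ko comparison called 0 under all alternatives run. Hspg2 in fed S662D turned to -0.0552 without the digit libraries. Within library sets, Col1a1 with Col1a2 had r = 0.52 in control replicates 1 to 5 and -0.003 in 6 to 10; Col1a1 with Col3a1 had 0.25 in controls 6 to 10 and 0.50 in S662D; Col4a1 with Col4a2 had 0.0779 in S662D from group means; Col6a1 with Col6a2 had 0.45 and Col9a1 with Col9a3 -0.0907 in controls 6 to 10. Over all libraries Col9a1 with Col9a3 had 0.44 without the 2 farthest. With deviations from group and digit means (added after seeing the data), Col1a1 with Col1a2 had 0.39 and Col4a5 with Col4a6 0.0012 over all libraries; within S662D, Col1a1 with Col1a2 had 0.17, Col4a1 with Col4a2 0.81, Col6a1 with Col6a2 0.84 and Col9a1 with Col9a3 -0.13. The causes were not tested, and fits within library sets rest on fewer libraries. With the replicate number as a block, 3, 0, 0, 3, 4 and 0 collagens were called in the 6 comparisons (fasting in controls, in S662D, interaction, fed S662D, fasted S662D, labelled ko). The fed S662D calls were then Col18a1, Col27a1 and Col2a1, 1 of them shared, and the fasted ones gained Col24a1 and lost Col27a1. The numbers share no source in the labels, and no pair of groups had every same-number correlation above 0.1. The largest values of this check were 0.24 and 0.16. Genes with few reads, such as Col9a1 with 3 in a library, limit precision.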
